A study of Homo sapiens with 30 samples.

Results

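The proteasome is the protease complex that degrades ubiquitin-tagged proteins, and its subunits are encoded by genes whose symbols begin with PSM. All 48 symbols of the run-on count table made of PSMA to PSMG and a number were taken, of 26475 symbols in the table. They comprise 8 genes of the alpha ring (PSMA), 7 constitutive and 4 immuno- or thymoproteasome genes of the beta ring (PSMB), 6 ATPase genes (PSMC) and 11 non-ATPase genes (PSMD) of the 19S particle, 3 genes for chaperones of 19S assembly, 5 for activators and an inhibitor (PSME, PSMF1) and 4 for chaperones of 20S assembly (PSMG). The rule used names only.

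The 20S core is a barrel of alpha and beta rings whose beta subunits hold the proteolytic sites. The 19S particle recognises ubiquitin chains, unfolds the substrate with its ring of ATPases and feeds it into the barrel, while the PSME activators cap the core without ATPases. Most proteasome genes are transcribed in every cell type, and when proteasome activity falls their transcription is raised by NFE2L1, a CNC-family factor that binds antioxidant response elements.

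The cells were HT1080, a human fibrosarcoma line, at passages 10 to 15, and received no treatment. Global run-on sequencing (GRO-seq) lets polymerases that are already engaged in isolated nuclei add bromouridine to their nascent RNA, which an antibody then captures. It was done in 6 groups of 3 libraries. These were cells labelled hNABP2 (hSSB1) knockout (KO), hNABP1 (hSSB2) KO and wild type (WT), each with added nucleotides (with NTP) and without (no NTP). Both proteins bind single-stranded DNA. Binding of hNABP2 was mapped by ChIP-seq in WT cells with a homemade antibody (2 libraries), and RNA:DNA hybrids by DRIP-seq with the S9.6 antibody in hNABP2 KO and WT cells (2 libraries each). IgG and RNase H libraries were not analysed here. The sources used here do not say how a KO line was made or whether it was 1 clone. The labels speak of 2 independent experiments while 3 run-on repeats are given, so p-values measure the spread between these libraries, which may be in part technical.

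The run-on libraries were shallow and unequal. Repeat 3 with NTP held 115923 counts in hNABP2 KO, 115528 in hNABP1 KO and 164357 in WT, and repeats 1 and 2 held 5883 to 19581. Libraries without NTP held 5272 to 79429. The targeted genes did not follow the labels: NABP2 had 4, 3 and 15 counts in the libraries labelled hNABP2 KO, against 4, 0 and 8 in WT, and NABP1 had 0, 1 and 18 in those labelled hNABP1 KO, against 1, 0 and 19 in WT. The genotypes below are therefore those of the labels. Mesenchymal markers were all detected (10 of 10, 664 counts with NTP), and so were 6 of 6 epithelial, 5 of 5 neural and 5 of 6 leukocyte markers, with 202, 159 and 52 counts and LYZ at 0. By library the summed mesenchymal markers took 0.0608% to 0.695% of the counts in hNABP2 KO, 0.0831% to 0.586% in hNABP1 KO and 0.110% to 0.417% in WT, and the summed epithelial markers 0.0276% to 0.194%, 0.0164% to 0.270% and 0.0195% to 0.292% in the same order of groups. Their part in the results below was not tested.

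hNABP2 ChIP peaks were frequent at genes of the 19S particle and of 20S assembly and rare at genes of the 20S core. In ChIP repeat 1, whose authors' list holds 10068 peaks, 23 of the 48 proteasome genes had a peak that the deposited annotation places within 1 kb of a start and names for the gene. The same was true of 29.7% of the 25255 symbols with a current name and of 56.2% of the 12027 protein-coding symbols with 10 or more run-on counts. Of the proteasome genes with 10 or more counts, 23 of 41 had one, which is near that background. The peaks were unevenly distributed among the parts of the complex, and no test of that distribution was made.

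In the 19S particle, 12 of 17 genes had a promoter peak in repeat 1. Of the 11 non-ATPase genes 10 had one, from PSMD1, which encodes the largest scaffold subunit, to PSMD14, which encodes the deubiquitinase. The exception was PSMD13. A peak lay within 1 kb upstream of its start (position 236976) but did not reach it (chr11:236109-236323, fold 4.12, -log10 q 21.8). That peak was named for SIRT3, whose start is 45 bp from that of PSMD13 on the other strand. Of the 6 ATPase genes, PSMC3 and PSMC5 had a peak, and PSMC1, PSMC2, PSMC4 and PSMC6 had none. In the 20S core, 2 of 19 genes had a peak. They were PSMA7, of the alpha ring, and PSMB6, which encodes the caspase-like site of the beta ring. None was found at PSMA1 to PSMA6 or PSMA8, at PSMB1 to PSMB5 or PSMB7, at the immunoproteasome genes PSMB8, PSMB9 and PSMB10, or at the thymic PSMB11. PSMB7 had 1 other peak named for it in repeat 1, not annotated within 1 kb of a start. For PSMB1 and PSMB7 the absence is by name only, because without a RefSeq start peaks named for a neighbour could not be sought. Among genes with 10 or more run-on counts the counts were 12 of 16 for the 19S particle and 2 of 13 for the 20S core.

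All 4 genes for chaperones of 20S assembly, PSMG1 to PSMG4, had a promoter peak in repeat 1. Of the 19S assembly chaperones, PSMD5 and PSMD9 had one and PSMD10 had none. Of the caps, PSME1 (PA28 alpha), PSME4 (PA200) and the inhibitor PSMF1 (PI31) had one. PSME2 (PA28 beta) and PSME3 (PA28 gamma) had none by name, although a peak at the start of PSME3 was named for BECN1 (chr17:42833240-42833543, fold 3.15, -log10 q 22.9).

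The 5 highest scores in repeat 1 were at PSMD12, PSMD8, PSMC5, PSMF1 and PSMD2. The score is the authors' -log10 q of the peak, and the fold is their enrichment at the summit. PSMD12, a scaffold subunit of the lid, had -log10 q 61.7 and fold 5.73 (chr17:67366274-67366662, hg38). PSMD8, another lid subunit, had 51.5 and fold 6.55 (chr19:38374683-38375026). The ATPase gene PSMC5 had 42.8 and fold 4.42 (chr17:63827475-63827760), PSMF1 had 42.6 and fold 5.41 (chr20:1118422-1118844), and PSMD2, a large scaffold subunit of the base, had 38.3 and fold 3.30 (chr3:184299107-184299597). The peak of PSMD12 was within the top 2.97% of the list. Over the 23 genes the median -log10 q was 22.5 and the median fold 3.77, beside 12.8 and 3.16 for all promoter peaks of the list. These 2 sets are unlike. The 23 genes have 1 peak each and all had 10 or more run-on counts. The list holds 8981 promoter peaks at 7974 named genes, whatever their counts. The lowest were PSME1 with 2.72 and PSMB6 with 2.82.

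**Figure D1:**
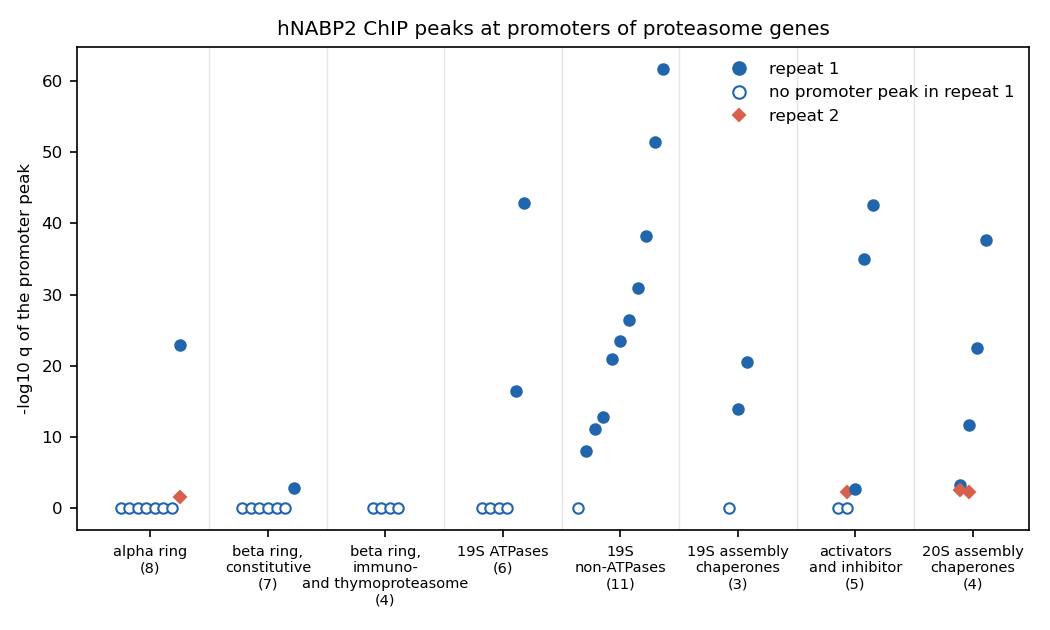
The -log10 q of the hNABP2 promoter peak of each of the 48 proteasome genes (y axis), grouped by part of the complex with the number of genes in brackets (x axis). Filled circles are repeat 1, diamonds repeat 2, and open circles at 0 are genes with no promoter peak in repeat 1. The 19S non-ATPase genes hold 10 of the 23 peaks and the 19 genes of the 3 groups at the left hold 2.

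Repeat 2 was poorer, with 2832 peaks, and shared few of these. It had a promoter peak at 4 proteasome genes (PSMA7, PSME2, PSMG2 and PSMG4), where 9.48% of all symbols and 18.1% of the transcribed protein-coding ones had one. In both repeats 3 genes had one, PSMA7, PSMG2 and PSMG4, with a background of 8.09% and 15.9%. Their repeat 2 scores, -log10 q 1.64 at PSMA7, 2.26 at PSMG4 and 2.50 at PSMG2, were below the list's median of 4.50, and so was that of PSME2 (2.26). The peaks of the repeats overlapped by 344 bp at PSMG2 and by 3 bp at PSMG4, and did not overlap at PSMA7. None of the 8 proteasome genes with a repeat 1 -log10 q of 30 or more had a promoter peak in repeat 2, whereas 426 of 1198 such protein-coding genes (35.6%) did. Over all scores the number shared was 3 of 23 (13.0%), beside 2006 of 7175 protein-coding genes (28.0%). The peaks at 19S genes therefore rest on repeat 1 alone: in repeat 2 none of the 17 had a promoter peak.

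Summits lay just downstream of the start in most cases. In repeat 1 the median distance of the summit from the start was 64 bp downstream, with 16 of 23 downstream and 7 upstream, and a range of -806 to 262 bp. The value of -806 bp was that of PSMG2, which has 2 RefSeq starts. Its named peak lies before the upstream start (position 12658738) and does not reach it (chr18:12657567-12658085, fold 1.99, -log10 q 3.26). A further peak at the other start of PSMG2, shared with CEP76 on the opposite strand, was named for CEP76 (chr18:12702535-12703185, fold 2.03, -log10 q 4.11). In repeat 2 the 4 summits lay at -1020 to 351 bp. PSMA7 has no RefSeq start here, so each of its peaks was measured from a start of the deposited annotation. Its -484 bp in repeat 2 is from another annotated start than its 37 bp in repeat 1. The repeat 2 peak of PSMA7 (chr20:62142837-62143084) lies inside the gene span, so its side of the start depends on the start chosen.

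**Figure D2:**
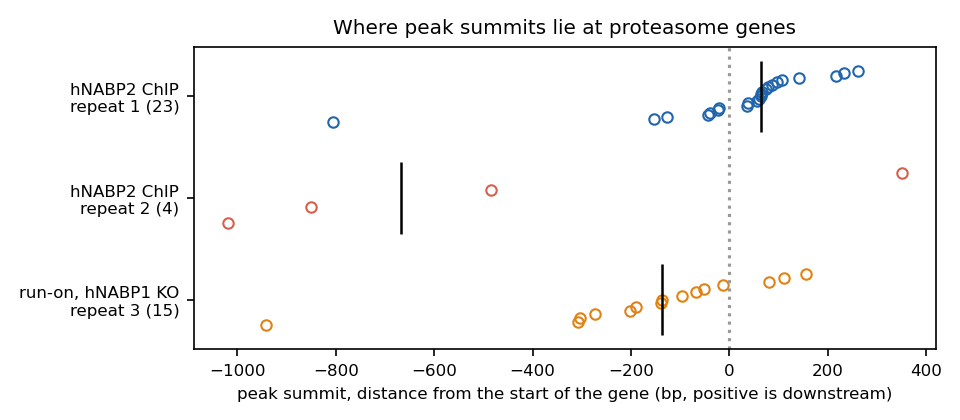
Distance of each peak summit from the start of its proteasome gene (x axis, bp, positive is downstream), for hNABP2 ChIP repeat 1 (23 peaks), ChIP repeat 2 (4 peaks) and the run-on peaks of hNABP1 KO repeat 3 (15 peaks). Vertical bars are medians, at 64, -667.5 and -137 bp from top to bottom. The median of ChIP repeat 2 includes PSMA7 at -484 bp, measured from another annotated start than in repeat 1. The summits of ChIP repeat 1 crowd at and just past the start.

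Promoter windows of 300 bases (250 before the start to 50 after), taken from RefSeq on GRCh38.p14, were found for 42 of the 48 genes, with 51 windows because some genes have several starts. There were none for PSMA7, PSMB1, PSMB6, PSMB7, PSMD4 and PSMG3. The 4 windows below carry the results on hNABP2 peaks: the highest scores (PSMD12 and PSMD8), a gene with an antioxidant response element and an ETS motif close together (PSME4), and a gene with a promoter peak in both repeats (PSMG4). PSMB10 is shown beside them as the gene with the most run-on counts in the 20S core, and it had no hNABP2 peak. The strand is that of the gene, PSMD12 and PSME4 and PSMB10 on the minus strand (chr17:67366528-67366827, chr2:53970944-53971243 and chr16:67936801-67937100) and PSMD8 and PSMG4 on the plus strand (chr19:38374321-38374620 and chr6:3258697-3258996). Capitals mark matches on either strand to TGACNNNGC, the core of the antioxidant response element, and to CCGGAAG, an ETS motif.
PSMD12: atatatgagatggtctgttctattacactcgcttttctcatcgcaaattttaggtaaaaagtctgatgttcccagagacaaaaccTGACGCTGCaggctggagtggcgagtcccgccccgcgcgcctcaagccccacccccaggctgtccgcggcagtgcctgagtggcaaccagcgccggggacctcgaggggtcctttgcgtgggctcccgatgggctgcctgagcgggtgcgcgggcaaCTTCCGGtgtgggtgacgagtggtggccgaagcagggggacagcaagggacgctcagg
PSMD8: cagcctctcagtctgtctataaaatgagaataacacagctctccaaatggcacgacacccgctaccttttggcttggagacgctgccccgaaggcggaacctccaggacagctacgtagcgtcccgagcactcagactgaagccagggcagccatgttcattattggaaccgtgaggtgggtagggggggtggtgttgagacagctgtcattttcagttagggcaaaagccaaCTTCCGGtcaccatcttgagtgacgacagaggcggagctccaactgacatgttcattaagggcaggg
PSME4: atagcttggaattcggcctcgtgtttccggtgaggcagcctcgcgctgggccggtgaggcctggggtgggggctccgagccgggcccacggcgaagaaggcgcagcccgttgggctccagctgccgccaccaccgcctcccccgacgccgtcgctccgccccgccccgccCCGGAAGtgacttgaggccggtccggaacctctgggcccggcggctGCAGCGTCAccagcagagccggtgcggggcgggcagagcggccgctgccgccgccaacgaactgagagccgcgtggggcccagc
PSMG4: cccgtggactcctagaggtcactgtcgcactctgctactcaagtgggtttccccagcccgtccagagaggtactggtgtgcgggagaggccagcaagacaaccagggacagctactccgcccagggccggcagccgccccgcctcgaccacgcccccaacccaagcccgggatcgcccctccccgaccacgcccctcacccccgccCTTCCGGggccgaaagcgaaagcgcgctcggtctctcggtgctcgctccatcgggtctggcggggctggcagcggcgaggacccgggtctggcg
PSMB10: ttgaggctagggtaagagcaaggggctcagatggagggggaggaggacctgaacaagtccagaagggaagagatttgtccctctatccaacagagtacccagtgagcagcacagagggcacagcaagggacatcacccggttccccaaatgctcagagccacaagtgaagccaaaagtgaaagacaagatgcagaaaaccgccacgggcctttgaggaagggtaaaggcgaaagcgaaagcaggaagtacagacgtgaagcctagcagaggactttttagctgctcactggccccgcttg

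In these windows PSMD12 has TGACNNNGC at -165 and CCGGAAG at -8, counting from 0 at the start, PSMD8 has CCGGAAG at -17, PSME4 has CCGGAAG at -80 and TGACNNNGC at -34, and PSMG4 has CCGGAAG at -44. PSMB10 has neither. TGACNNNGC, to which CNC-family factors bind, was in 15 of the 51 windows (29.4%), against 13.4% of all 35097 RefSeq promoter windows. CCGGAAG was also in 15 windows (29.4%), against 10.3% of all, and 9 of the 18 windows of 19S genes held it, against 2 of the 20 of 20S core genes. GGGCGG, bound by SP and KLF factors, was in 68.6%, against 45.0% of all and 56.3% of protein-coding windows. On the strand of the gene alone it was in 35.3%, against 39.4% of protein-coding windows, so its excess turns. CCAAT, the NF-Y motif, was in 39.2%, against 34.6%. AAGATGGCG, a YY1 motif, was in 3 windows (5.88%), against 1.75%. GCGCATGCG, the motif of nuclear respiratory factor 1, was in 2 (3.92%), against 1.92%, both from the neighbouring starts of PSMA4. TGACGTCA, the cyclic AMP response element, was in none, against 1.85%. Both strands were searched and windows of 1 gene can overlap. At PSMD9 a CCGGAAG on the opposite strand abuts a TGACNNNGC. A match is only a match of letters.

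Windows of genes with a hNABP2 peak within 1 kb in repeat 1 were richer in CpG, at proteasome genes as at others. Windows were sorted by gene, so a window far from the peak is included. An example is the PSMF1 window that starts at chr20:1113013 (4 CpG), with the peak at chr20:1118422-1118844. The 25 windows of the 21 proteasome genes with such a peak had a median of 28 CpG (3 to 39) and 65.0% GC, against 19 CpG (4 to 30) and 58.7% GC in the 26 windows of the 21 genes without. Over windows of all protein-coding genes the medians were 28 CpG and 67.3% GC for genes with a peak. They were 12 CpG and 58.0% GC for genes without. The 18 windows of 19S genes had a median of 23 CpG, against 19 in the 20 windows of 20S core genes. CCGGAAG went the same way: it was in 40.0% of the windows of proteasome genes with a peak, against 19.2% for those without. For all protein-coding genes it was in 17.0% of the windows of genes with a peak, against 9.43% for those without.

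**Figure D3:**
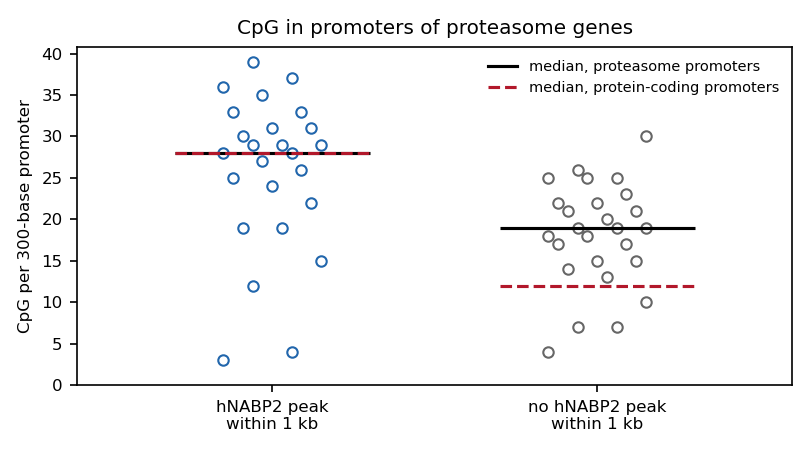
CpG in each 300-base promoter window of the proteasome genes (y axis). Windows are sorted by gene (x axis): 25 of genes with, 26 of genes without a hNABP2 peak within 1 kb in ChIP repeat 1. Solid lines are the medians of the proteasome windows (28 and 19), dashed lines those of all protein-coding windows (28 and 12). The 2 groups overlap, with most windows of genes with a peak above 20.

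Run-on counts at the proteasome genes came to 1084 over the 9 libraries with NTP, of which 940 (86.7%) lay in repeat 3, as did 86.3% of all counts. The median gene had 17 counts, and 41 of 48 had 10 or more. Only 18 exceeded 24, the median of the 13447 symbols with 10 or more counts. Of the 48 genes, those detected in repeats 1 to 3 numbered 22, 8 and 47 in hNABP2 KO, 17, 4 and 45 in hNABP1 KO and 18, 7 and 47 in WT. In repeats 1 and 2 together 12 genes had none in any genotype. A count of 0 allows up to 3 counts, which is 18.3 to 26.0 CPM (counts scaled to library totals) in repeat 3 and 153 to 510 CPM in repeats 1 and 2.

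As a share of the library, the proteasome genes took 0.296%, 0.137% and 0.257% of the counts in hNABP2 KO with NTP, 0.289%, 0.0927% and 0.195% in hNABP1 KO and 0.234%, 0.170% and 0.254% in WT. The means were 0.230% ± 0.083, 0.192% ± 0.098 and 0.219% ± 0.044 (SD, n = 3 each, in that order). Repeat 2 was the lowest in every group with NTP, and the groups overlapped. The differences of the means were within the spread between repeats. In repeat 3, where counting error is smallest, the exact 95% Clopper-Pearson interval of the share was 0.229% to 0.288% in hNABP2 KO, 0.170% to 0.222% in hNABP1 KO and 0.230% to 0.279% in WT. Such intervals cover counting error only, and 1 library each says nothing of the spread. In the repeat 1 library of hNABP1 KO the share was above that of WT, the reverse of repeat 3.

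**Figure D4:**
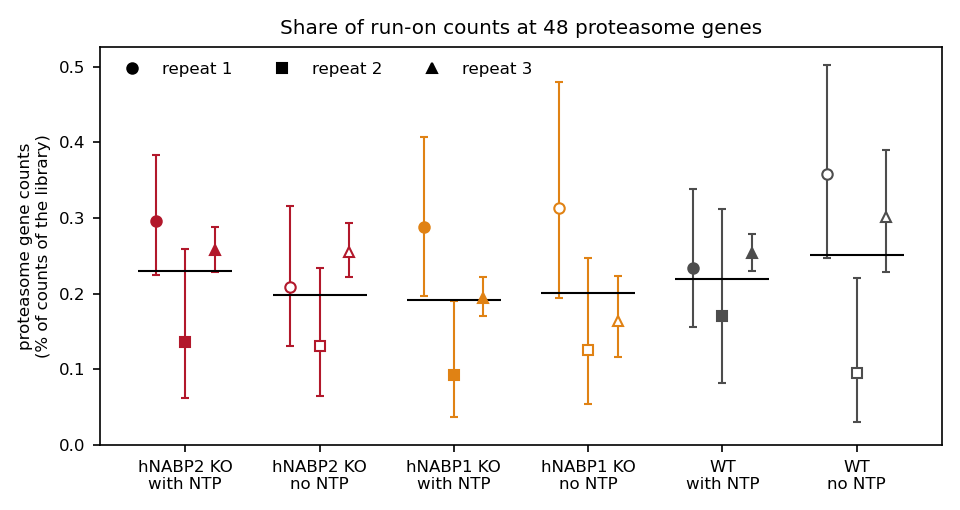
Share of the counts of each run-on library at the 48 proteasome genes (y axis, percent), for each genotype with and without NTP (x axis). Points are libraries with exact 95% intervals of counting error, horizontal lines are means of 3, and marker shapes are repeats. Means lie between 0.192% and 0.251% and the libraries of all groups overlap.

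By role, most counts fell on the 19S non-ATPase genes, which are also the most numerous (325 counts over 11 genes with NTP), followed by the 19S ATPases (150 over 6), the alpha ring (137 over 8), the caps and inhibitor (126 over 5), the PSMG chaperones (111 over 4), the constitutive beta ring (96 over 7), the immuno- and thymoproteasome genes (87 over 4) and the 19S chaperones (52 over 3). The 10 genes with the most counts were PSMD2 (71), PSMB10 (51), PSMA7 (48), PSME3 (44), PSMC3 (41), PSMD3 (39), PSMD11 (37), PSMG1 (37), PSMC4 (35) and PSMC5 (34). Per kb of gene span, a measure of density rather than of raw counts, PSMB10 led with 21.7 counts per kb, then PSME1 with 10.8, PSMG3 with 8.89, PSMC5 with 7.41 and PSMD2 with 7.24. The testis gene PSMA8 was lowest on both scales, with 2 counts and 0.0336 per kb. Fewer cells and less RNA per cell cannot be told apart in such bulk libraries.

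PSMD2 (chr3:184299241-184309050) had 5, 0 and 16 counts in hNABP2 KO, 3, 0 and 15 in hNABP1 KO and 3, 2 and 27 in WT. These were 131 ± 128, 133 ± 135 and 252 ± 87.8 CPM (SD, n = 3 each). The WT libraries were the highest of each repeat but the first, and the groups overlapped. PSMB10 (chr16:67934506-67936850), which encodes the beta 2i site of the immunoproteasome, was the only proteasome gene with 2 or more counts in repeat 2 of every genotype. It had 4, 2 and 16 counts in hNABP2 KO, 2, 3 and 7 in hNABP1 KO and 2, 2 and 13 in WT, or 215 ± 83.5, 213 ± 171 and 195 ± 133 CPM. The other immunoproteasome genes were sparser. PSMB8 had 0, 0 and 2 counts in hNABP2 KO, 1, 0 and 5 in hNABP1 KO and 0, 0 and 8 in WT. PSMB9 had 0, 0 and 3, then 0, 0 and 4, then 0, 0 and 8 in the same groups. The thymic gene PSMB11 had 5 counts in all with NTP, each in repeat 3.

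PSMA7 (chr20:62136733-62143394) differed most between the deep libraries among the genes with over 40 counts. It had 0, 1 and 5 counts in hNABP2 KO, 0, 0 and 26 in hNABP1 KO and 1, 0 and 15 in WT, or 65.0 ± 78.3, 75.0 ± 130 and 58.2 ± 50.6 CPM. The high value was the repeat 3 library of hNABP1 KO, and repeats 1 and 2 of that genotype were at 0. PSMA7 was chosen for this remark after its values were seen. PSMC5, an ATPase gene, had 4, 1 and 10 counts in hNABP2 KO, 1, 1 and 7 in hNABP1 KO and 0, 0 and 10 in WT. That is 204, 152 and 86.3 CPM in hNABP2 KO, against 0, 0 and 60.8 CPM in WT. The zeros of WT repeats 1 and 2 allow up to 250.4 and 509.9 CPM, above each hNABP2 KO value, and the deep repeat 3 of both held 10 counts. PSMC5 did not pass the test below, in which 0% of genes were called.

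**Figure D5:**
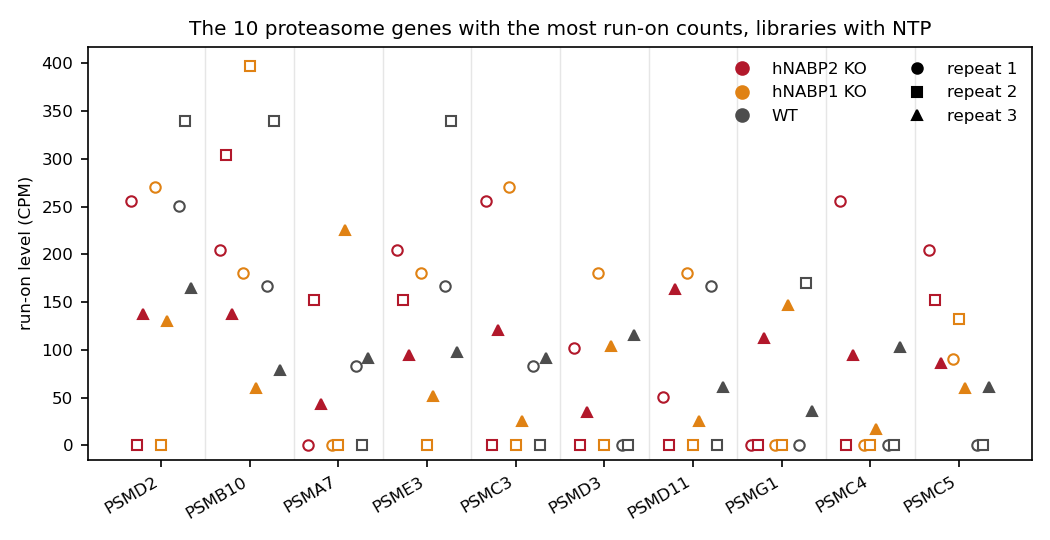
Run-on level in CPM (y axis) of the 10 proteasome genes with the most counts with NTP (x axis), for hNABP2 KO, hNABP1 KO and WT from left to right within each gene. Filled triangles are the deep repeat 3, open symbols repeats 1 and 2, where 1 count is worth 51.1 to 170 CPM. Points at 0 in repeats 1 and 2 allow up to 153 to 510 CPM, and with these floors the genotypes overlap at each gene.

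No proteasome gene passed the test between genotypes. With edgeR's quasi-likelihood test on genes with 10 or more counts, 0 of 13447 genes (0%) had an adjusted p under 0.05 for hNABP2 KO against WT, and likewise 0% for hNABP1 KO against WT and 0% for hNABP2 KO against hNABP1 KO. None of the 41 proteasome genes tested was called in any of the 3. At an unadjusted p under 0.05 there were 41, 163 and 248 genes in these comparisons, of which 0, 0 and 1 were proteasome genes. DESeq2 and limma voom called 0 genes in each as well. Relative to WT, 19 of the 41 genes had a higher fitted value and 22 a lower one in hNABP2 KO, with a median log2 fold change of -0.12 beside 0.07 over all genes. In hNABP1 KO the split was the same, 19 and 22, with a median of -0.11 beside -0.03. Between the knockouts 21 were higher and 20 lower in hNABP2 KO, with a median of 0.01 beside 0.12. Scaling by library totals in place of TMM moved the median of all genes to -0.06, -0.40 and 0.34, and that of the proteasome genes to -0.28, -0.55 and 0.19. The sign of the small median between the knockouts turned with limma voom (-0.13) and with the replicate block (-0.04). All 3 medians also changed sign when single libraries were left out. For hNABP2 KO against WT the median was 0.18 without hNABP2 KO repeat 2, 0.84 without WT repeat 3 (21 of 27 genes higher) and -1.25 without hNABP2 KO repeat 3 (10 of 36 higher). For hNABP1 KO against WT it was 0.20 without hNABP1 KO repeat 2, 0.09 without hNABP2 KO repeat 3, 1.49 without WT repeat 3 (20 of 27 higher) and -2.68 without hNABP1 KO repeat 3 (10 of 38 higher). Between the knockouts it was -0.01 without WT repeat 2, -0.39 without hNABP1 KO repeat 2, -1.40 without hNABP2 KO repeat 3 (12 of 36 higher) and 2.99 without hNABP1 KO repeat 3 (31 of 38 higher). The median of all genes moved with them, to 2.02, 2.22 and 2.96 at the highest, and the sign of each depends on single libraries. This design made calls only with the repeat number as a block: 0, 16 and 19 genes, none of them a proteasome gene.

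The genes with the smallest p rested on few counts. PSMB5, which encodes the chymotrypsin-like site, had no count in hNABP2 KO, 1, 0 and 3 in hNABP1 KO and 0, 0 and 6 in WT. The exact interval of counting error of the pooled ratio was 0 to 1.09 for hNABP2 KO to WT and 0 to 1.43 for hNABP2 KO to hNABP1 KO, and both reach past 1. The edgeR p was 0.069 against WT (adjusted p = 1.00) and 0.043 against hNABP1 KO (adjusted p = 1.00). PSMC2, an ATPase gene, had 4, 0 and 6 counts in hNABP2 KO, 0, 0 and 1 in hNABP1 KO and 0, 0 and 3 in WT. Its pooled ratio of hNABP2 KO to WT was 4.28 (exact interval of counting error 1.10 to 24.2), with a fitted log2 fold change of 2.44 (SE 1.74, adjusted p = 1.00 in edgeR). PSMD1 had 9 counts in hNABP2 KO, against 3 in WT, with a ratio of 3.85 (0.960 to 22.1).

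PSMC4, another ATPase gene, had 5, 0 and 11 counts in hNABP2 KO, 0, 0 and 2 in hNABP1 KO and 0, 0 and 17 in WT. The hNABP1 KO libraries had the fewest counts, and in repeats 1 and 2 the WT libraries had none either. The pooled ratio of hNABP1 KO to WT was 0.160 (0.0179 to 0.673) and that of hNABP2 KO to hNABP1 KO was 7.55 (1.78 to 67.7). These intervals leave out the spread between libraries, and with it the edgeR values were -1.73 (SE 1.71, adjusted p = 1.00) and 2.76 (SE 1.75, adjusted p = 1.00) on the log2 scale. Without WT repeat 3, the only WT library with a count, the first turned to 2.33 (SE 3.01). PSMA3 had 1 count in hNABP1 KO, against 9 in WT (ratio 0.151, 0.00344 to 1.09), and PSMA1 had 2, against 7 (ratio 0.388, 0.0393 to 2.04).

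No proteasome gene passed the test for the effect of added nucleotides. With NTP against no NTP, edgeR called 0 of 14907 genes (0%) in hNABP2 KO, 0% in hNABP1 KO and 0% in WT, and none of the 46 proteasome genes tested. At an unadjusted p under 0.05 the numbers were 359, 927 and 163 genes, with 3, 3 and 0 proteasome genes, and DESeq2 and limma voom called 0. Fitted values were higher with NTP for 27, 33 and 30 of the 46. The median log2 fold changes of the proteasome genes were 0.40, 0.79 and 0.49, beside 0.17, 1.70 and 0.93 over all genes. With limma voom the median in hNABP1 KO turned to -0.16, with 17 of 46 higher. The median in hNABP2 KO was -0.86 without its repeat 3 library with NTP (14 of 43 higher) and that in WT was -0.28 without its repeat 3 library with NTP (8 of 37 higher). Without the repeat 3 library with NTP of hNABP1 KO, 11 of 44 were higher and 20 lower in that genotype, with a median of 0. Without NTP the proteasome genes took 0.209%, 0.131% and 0.256% of the counts in hNABP2 KO, 0.314%, 0.126% and 0.163% in hNABP1 KO and 0.358%, 0.0948% and 0.301% in WT. With NTP the share was higher in 3 of 3 repeats of hNABP2 KO and in 1 of 3 of both other genotypes.

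Counts of some members may hold reads of another transcript. The labels' library kit keeps the strand, but its use in the counting is not stated, so a gene and its antisense partner cannot be told apart. In the 5 pairs present, repeats 1 and 2 with NTP gave 5 counts to the proteasome genes, against 22 to the antisense genes, and repeat 3 gave 79 to the proteasome genes, against 72. PSMB8 had 1 count in repeats 1 and 2, against 9 for PSMB8-AS1, and PSMG3 had 23 in repeat 3, against 24 for PSMG3-AS1. Several proteasome genes also have processed pseudogenes, with which reads could be shared.

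Run-on peaks at proteasome genes came almost wholly from 1 library. The authors' list for hNABP1 KO repeat 3 holds 9965 peaks, while the other 8 libraries with NTP have 94 to 518, so differences between lists cannot be told apart from this difference in calling. In that library 18 proteasome genes had a peak in the gene or near a start, and 14 of the 42 with a RefSeq start had one within 1 kb of it, against 31.8% of 15843 protein-coding genes. The other libraries had 0 to 2. The strongest was at PSMA7 (chr20:62143089-62143905, fold 31.3, -log10 q 71.3), and it spans the hNABP2 peak of ChIP repeat 1 (chr20:62143139-62143854, fold 3.19, -log10 q 22.9). PSMD3 followed with fold 14.3 and -log10 q 25.7 (chr17:39980488-39980867) and PSMG1 with fold 14.9 and -log10 q 24.7 (chr21:39183208-39183614). Peaks of other libraries lay within PSMD14 (hNABP2 KO repeat 1, fold 4.83), within PSMD3 and upstream of PSMG2 (hNABP1 KO repeat 2, -log10 q 2.52 and 6.99), and at PSMD4 and PSMG2 (WT repeat 3, fold 5.20 and 6.34).

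Run-on peaks and hNABP2 peaks met at the same promoters about as often as elsewhere. Of the 21 proteasome genes with a hNABP2 peak near a start, 11 (52.4%) also had a run-on peak near a start in hNABP1 KO repeat 3, beside 58.5% of such protein-coding genes. Of the 21 without, 3 had one (14.3%), beside 12.5%. These 3 were PSMC4, PSMA5 and PSMA2. The summits of the 15 run-on peaks lay at a median of -137 bp, with 12 upstream of the start and 3 downstream, where those of hNABP2 lay mostly downstream.

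A DRIP peak was called at 1 proteasome gene. Whether it was lost with RNase H was not examined, so it is not shown to be a hybrid. The DRIP lists are short, with 13 and 167 peaks in hNABP2 KO and 173 and 107 in WT. PSMC4 had a peak in hNABP2 KO repeat 2 (chr19:39970955-39971191, fold 5.37, -log10 q 3.20), with no peak at any proteasome gene in the other 3 libraries. That is 1 of the 42 genes with a RefSeq start, where 0.271% of 15843 protein-coding genes had a DRIP peak within 1 kb of a start in that library. The peak covers 237 bases of the promoter window of PSMC4 (chr19:39970915-39971214, plus strand, RefSeq GRCh38.p14), shown here with the DRIP peak in capitals. The run-on peak of PSMC4 in hNABP1 KO repeat 3 lies just upstream and overlaps its edge (chr19:39970600-39970963, fold 5.18).
PSMC4: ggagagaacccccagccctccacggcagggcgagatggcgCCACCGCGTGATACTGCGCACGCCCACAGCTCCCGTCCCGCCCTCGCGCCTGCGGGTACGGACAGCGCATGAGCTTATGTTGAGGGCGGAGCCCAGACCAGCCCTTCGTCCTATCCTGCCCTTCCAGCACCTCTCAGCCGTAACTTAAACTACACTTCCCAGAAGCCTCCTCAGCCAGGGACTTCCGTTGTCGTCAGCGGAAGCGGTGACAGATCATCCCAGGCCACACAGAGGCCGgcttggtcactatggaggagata

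Other genes of the pathway were looked at in the same lists. Of 33 listed genes for proteasome assembly and associated factors, control of proteasome genes, and ubiquitin and shuttling, 27 had a hNABP2 promoter peak in repeat 1 and 8 in repeat 2, beside 56.2% and 18.1% of the transcribed protein-coding symbols. The difference from the proteasome genes was not tested. All 6 genes that control proteasome transcription had one in repeat 1: NFE2L1 (-log10 q 32.9), NFE2L2 (37.5), NFE2L3 (1.66), DDI2, the protease that cleaves NFE2L1 (16.4), NGLY1 (11.1) and KEAP1 (74.1). Genes with peaks in both repeats included ADRM1, a ubiquitin receptor of the 19S particle, KIAA0368 (ECPAS), UBE3C, ZFAND5, NFE2L3, KEAP1 and RAD23B. Among these KEAP1 (-log10 q 10.7), ZFAND5 (7.61) and ADRM1 (6.39) scored highest in repeat 2. At NFE2L3 the peaks of the repeats did not overlap (26152851-26153083 and 26152067-26152531). At UBE3C they overlapped only at an edge (157138473-157139122 and 157139091-157139284). The chaperone gene POMP had a peak in repeat 1 (29.0), while UCHL5, PAAF1, TXNL1, SHFM1 (SEM1), RPS27A and BAG6 had none. In the genotype comparisons 0 of the 32 pathway genes tested were called by edgeR.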

How the data were processed

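HT1080 run-on, ChIP and DRIP libraries were grouped by the labels. The deposited table holds raw counts per gene symbol. For each library the authors' peak list scores a peak by its fold (a ratio to background) and by -log10 of p and q. The submitters' processing notes name cutadapt 1.18, Bowtie2 2.3.5, SAMtools, MACS2 2.2.1 and hg38. The strand setting and the controls of peak calling are not stated.

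Counts were tested with edgeR 4.0.16 (quasi-likelihood, TMM, 10 or more counts over the libraries fitted, R 4.3.3), adjusted by Benjamini-Hochberg over all genes tested at 0.05. DESeq2 1.42.0, limma 3.58.1 (voom), other scalings and filters, leaving out libraries and a replicate block were alternatives. Depth per library was 5272 to 164357 counts. A promoter peak is 1 annotated within 1 kb of a start, and peaks near RefSeq starts were also found within 1000 bp. Peak scores rank peaks within a list only.

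With group means removed, correlations were 0.331 to 0.480 in the 9 pairs of libraries that share a repeat number. In the 18 pairs that do not, they were -0.394 to 0.148. Depth also went with the repeat number, so these correlations cannot show that the libraries were paired.

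Members and gene lists were chosen with earlier results of these data known. Named genes were the 10 with the most counts, the 3 with the smallest p per genotype comparison, the 5 highest ChIP scores, those with promoter peaks in both repeats, the immunoproteasome and tissue-restricted genes, those without peaks, and pathway genes bound in both repeats, except an item that is not reported here. Others were named after their values were seen. Backgrounds over transcribed protein-coding genes and score ranges were chosen after seeing the data.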

Additional observations from a re-analysis of the deposited data

How the results depend on the processing

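No proteasome gene was called in any of the 6 comparisons under any alternative in which one could be tested. With filterByExpr 129 genes (with NTP) or 211 genes passed and no proteasome gene was among them. With the replicate block, edgeR called 16 genes for hNABP1 KO against WT, 19 for hNABP2 KO against hNABP1 KO and 1 for NTP in hNABP1 KO. None was a proteasome gene, and 0 genes were called in the other 3 comparisons. The counts of called genes without each library in turn were 0 to 0 in all 6 comparisons. Of the 9 fitted values of named proteasome genes, PSMC4 in hNABP1 KO against WT changed sign without WT repeat 3 (2.33 on the log2 scale; without each library in turn it ran from -4.44 to 2.33), and the other 8 kept theirs in the 6 to 9 fits that could be made for each; PSMB5, PSMA3 and PSMA1 against WT have none without WT repeat 3. Mean shares moved by less than 1 SD without ribosomal RNA genes and without PSMD2. They also did so without each repeat, but leaving 1 of 3 libraries out cannot move a mean by 1 SD. At -log10 q of 5 or more 20 genes kept a promoter peak in ChIP repeat 1, and 0 in repeat 2 and 0 in both. Where the peaks of the repeats had to overlap by 50% of the shorter, 1 gene was shared. On the strand of the gene only, CCGGAAG was in 8 proteasome windows (15.7%, against 7.25% of protein-coding ones) and GGGCGG in 18 (35.3%, against 39.4%). The cause of these changes was not tested, except that a single strand or a stricter threshold can only lower a count. Depth is a limit: repeats 1 and 2 hold 144 of the 1084 counts at these genes, while 1 count there weighs 51.1 to 170 CPM in the means, and the 19S binding rests on ChIP repeat 1.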
